A study of Mus musculus with 2 samples.

Results

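The genes described here encode the basic machinery of transcription: RNA polymerases I, II and III, the Mediator coactivator, the general transcription factors, the Integrator complex and the Supt family of elongation and chromatin factors. They were taken from the deposited table by symbol (names that begin with Polr1, Polr2, Polr3, Gtf2 or Gtf3, numbered Med, Taf, Ints and Supt genes, and Tbp) with a mean value of at least 50. The symbol pattern matched 119 rows, the germline paralog Taf7l was left out, and all of the remaining 118 genes were above the floor, out of 14398 genes in the table and 12679 above the floor. The members with the lowest means were Gtf2ird2 (90.6) and Taf9b (94.9), not far above the floor. Subunits that the table does not list under these names, among them Med10, Taf4 and Taf9, were not analysed here.

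Both cultures came from 46C, a mouse embryonic stem cell line, and each was sequenced as 1 library. PB-ID2 cells were transfected to overexpress ID2, a helix-loop-helix protein that binds E proteins and keeps them from DNA, and PB cells received the empty vector. All cells were between passages 21 and 24 and grew on gelatin with serum and LIF, the cytokine leukemia inhibitory factor, and the labels give neither the promoter of the vector nor the number of clones. Id2 itself stood at 26225 in the PB-ID2 library and 324 in the PB library, in the direction of the labels.

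With 1 library per group there is no spread between replicates, so every difference describes these libraries only and carries neither an error nor a test. Values are the authors' normalized values, whose sequencing depth is unknown, and ratios are log2 of PB-ID2 over PB after adding 1 to both values. Each value is a whole number of steps, and the sorted whole numbers of both libraries are identical, so a value gives a gene's place in the order of its library. Members were counted as higher, lower or equal on these whole numbers, because the size factors alone add 0.01 to every log2 ratio. In bulk RNA, fewer cells of a type and less RNA per cell cannot be told apart. All 7 stem cell markers were abundant in both libraries, between 13619 and 27887 in PB-ID2 and between 9009 and 27618 in PB. Of these 7, 6 were higher in PB-ID2 and 0 lower, with a summed level of 125763 in PB-ID2 and 101267 in PB, and the highest ratios were those of Zfp42 (0.85), Klf4 (0.50) and Esrrb (0.48). Of 7 fibroblast and feeder markers 6 were in the table, with a summed level of 1612 in PB-ID2 and 2334 in PB, 5 of them lower in PB-ID2, and Col1a2 and Tnc at 7.03 there. The part of both marker sets in the results below was not tested.

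RNA polymerase I makes the large ribosomal RNA precursor, RNA polymerase II makes messenger RNA, and RNA polymerase III makes transfer RNA, 5S ribosomal RNA and other short RNAs. Each needs its own set of general factors to find a promoter. Mediator bridges DNA-bound activators and RNA polymerase II, while Integrator cleaves nascent RNA and ends transcription early at many genes. In embryonic stem cells Mediator subunits are known to occupy the enhancers of pluripotency genes together with cohesin, and several TFIID subunits are known to be needed for self-renewal.

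Most members of this machinery stood at nearly the same level in both libraries. Of the 118 members, 67 were higher in PB-ID2 (56.8%), 49 lower and 2 equal, while 47.2% of the 12679 background genes were higher and 51.5% were lower. The median log2 ratio of the members was 0.05 (quartiles −0.10 and 0.22), beside −0.0023 over all genes (quartiles −0.21 and 0.22). Within 0.32 on the log2 scale in either direction were 91 members (77.1%), against 65.3% of all genes. At least 1.5-fold higher were 7 members (5.93%), beside 8% of all genes, and at least 1.5-fold lower were 2 (1.69%), beside 6.59%. No member was 2-fold apart, while 2.53% of all genes reached that size on the higher side and 1.86% on the lower.

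The narrow spread has to be read against level, since ratios of genes with high values spread less and the members had higher values (median mean 1391, against 789 for all genes). Among genes with means from 1700 upward, 41 of 44 members (93.2%) lay within 0.32, beside 81.1% of all genes there. From 700 to 1700 these were 38 of 45 members (84.4%) and 73.5% of all genes. Below 700 they were 12 of 29 members (41.4%) and 51.6% of all genes, while 20.7% of members and 24.7% of all genes there were at least 1.5-fold apart. Members below 700 had higher means (median 427, against 239 for all genes there), so this range does not match them in level. Of the 9 members at least 1.5-fold apart, 6 had means below 700.

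**Figure D1:**
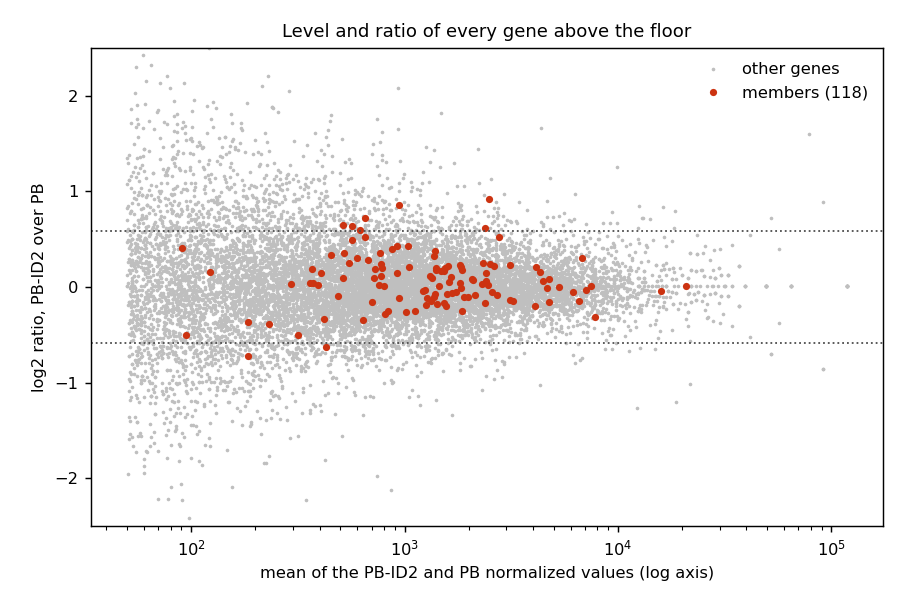
Mean of the PB-ID2 and PB normalized values (log axis) against the log2 ratio of PB-ID2 over PB, for 118 members (red) and all other genes above the floor (grey). Dotted lines mark 1.5-fold, and 18 genes lie outside the plotted range. Of the members, 7 lie above the upper line and 2 below the lower one, and the cloud narrows to the right.

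**Figure D2:**
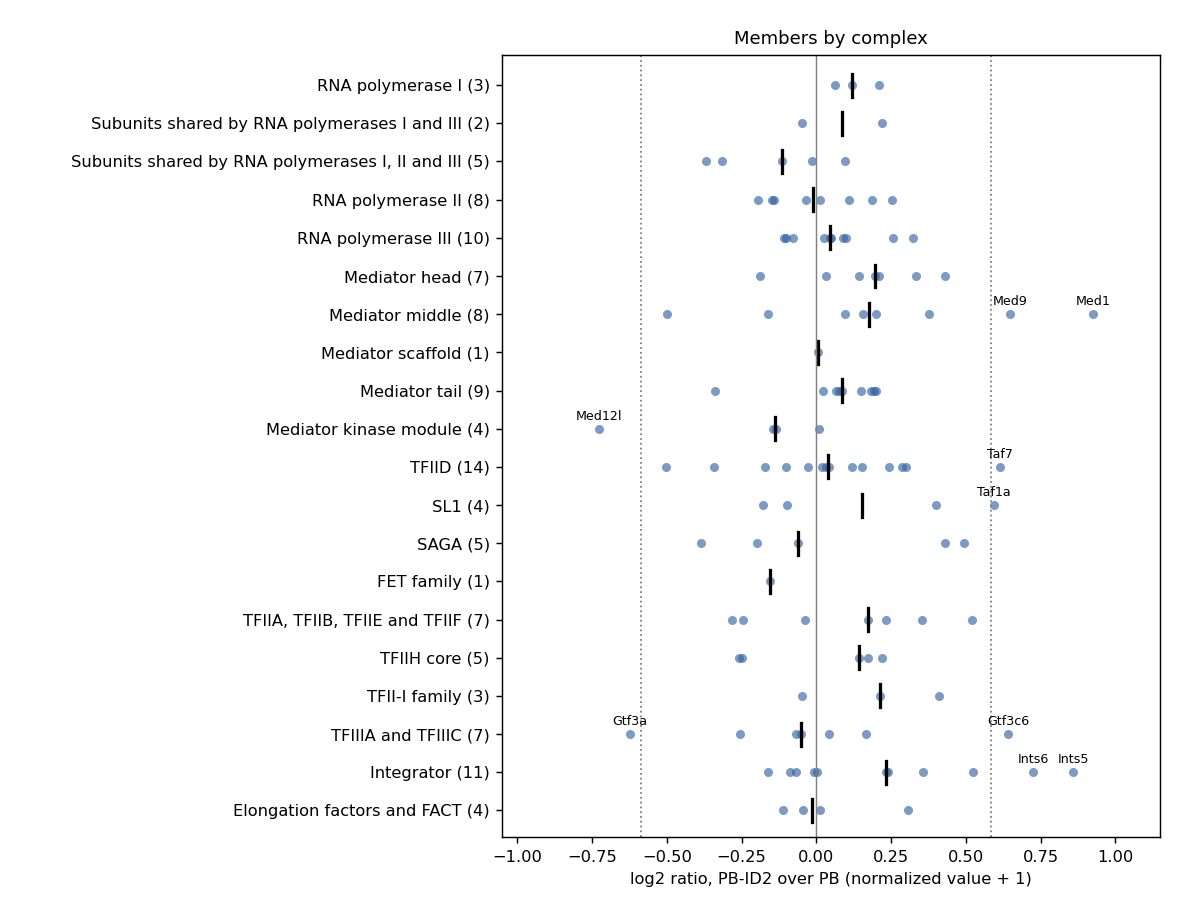
Log2 ratio of PB-ID2 over PB (normalized value + 1) of each member, 1 point a gene, by complex, with the number of members in brackets and the median as a black bar. Dotted lines mark 1.5-fold, and the 9 members past them are named. No polymerase subunit is past them, and Mediator, TFIID, SL1, TFIIIC and Integrator hold the 7 to the right.

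Mediator held the largest difference. Med1, the subunit through which nuclear receptors contact the complex, stood at 3262 in PB-ID2 and 1718 in PB, a log2 ratio of 0.92 and the highest of all members. The authors' deposited table gives Med1 an unadjusted p of 0.0019 and an adjusted p of 0.318. Of the 118 members, the authors' deposited table gives 3 an unadjusted p under 0.05 (2.54%, beside 4.33% of all genes above the floor), and 0 an adjusted p under 0.05, beside 0.205% of all genes. The p-values are the authors' and compare single libraries. The authors' log2 column follows from the values used here, which were already set to a common distribution. Whether the p-values rest on them too is not stated, so they are quoted as deposited only.

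ID2 acts on E proteins, which bind the E-box CANNTG, so the promoter windows of the members with the highest and lowest ratios that have an entry in the RefSeq promoter table (build GRCm38.p6) are shown, from 250 bases before to 50 bases after the transcript start. Every match to CANNTG is in capitals, and because the motif reads alike on both strands 1 search covers both. Med1 lies at chr11:98192857-98193156 on the minus strand, with 1 match at base 253 of the window. Ints6, the member with the third-highest ratio, lies at chr14:62761063-62761362 on the minus strand, with 1 match at base 145. Med12l lies at chr3:59006728-59007027 on the plus strand and has 0 matches. Gtf3a lies at chr5:146948407-146948706 on the plus strand, with 1 match at base 174.
Med1: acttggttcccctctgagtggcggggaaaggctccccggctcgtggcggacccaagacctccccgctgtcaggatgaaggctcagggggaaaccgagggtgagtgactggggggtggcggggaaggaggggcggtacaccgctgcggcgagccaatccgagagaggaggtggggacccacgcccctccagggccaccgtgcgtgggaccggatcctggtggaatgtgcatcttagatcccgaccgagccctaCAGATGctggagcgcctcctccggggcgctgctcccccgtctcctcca
Ints6: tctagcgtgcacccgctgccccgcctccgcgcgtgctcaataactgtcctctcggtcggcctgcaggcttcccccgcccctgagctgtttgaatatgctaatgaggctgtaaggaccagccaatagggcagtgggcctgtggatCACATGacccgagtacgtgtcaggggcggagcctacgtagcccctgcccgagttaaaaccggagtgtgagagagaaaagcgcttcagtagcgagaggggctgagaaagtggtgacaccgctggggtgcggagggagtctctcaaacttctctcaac
Med12l: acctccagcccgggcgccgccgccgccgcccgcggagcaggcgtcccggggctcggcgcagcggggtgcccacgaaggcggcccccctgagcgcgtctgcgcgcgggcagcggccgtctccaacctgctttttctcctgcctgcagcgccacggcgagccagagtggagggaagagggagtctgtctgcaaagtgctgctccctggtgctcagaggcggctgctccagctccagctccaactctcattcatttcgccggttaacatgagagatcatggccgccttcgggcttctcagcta
Gtf3a: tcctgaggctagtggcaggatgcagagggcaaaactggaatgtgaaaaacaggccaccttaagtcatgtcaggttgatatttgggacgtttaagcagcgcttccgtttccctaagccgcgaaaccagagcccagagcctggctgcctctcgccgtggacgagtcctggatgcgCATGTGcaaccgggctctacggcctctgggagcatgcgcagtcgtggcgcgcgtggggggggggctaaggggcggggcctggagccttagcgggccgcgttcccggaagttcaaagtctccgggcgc
Windows were found for 100 of the 118 members, some with more than 1 start. Of 116 member windows, 68 held CANNTG (58.6%). Of the 32851 windows of all 27025 genes with a window, 23756 held it (72.3%). These 27025 include genes outside the deposited table and are not the genes above the floor, so the shares come from unlike sets. A match of these letters is a description of sequence and not a binding site.

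The middle module of Mediator, which with the head forms the core of the complex, had 6 of 8 members higher and a median of 0.18. Besides Med1, Med9 was past 1.5-fold, with 627 in PB-ID2 and 400 in PB (0.65). Med4 followed with 1571 in PB-ID2 and 1208 in PB (0.38), and Med19 had 836 in PB-ID2 and 728 in PB (0.20). Smaller ratios were those of Med7 (0.15) and of Med26, which links Mediator to elongation factors (0.10). Med31, one of the most conserved subunits, was the lowest of the module with 263 in PB-ID2 and 372 in PB (−0.50), and Med21 had 666 in PB-ID2 and 744 in PB (−0.16). Among the Mediator modules this one had the widest range of ratios.

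The head module, which contacts RNA polymerase II, had 6 of 7 members higher, with a median of 0.19. Med8 stood highest in ratio, at 1059 in PB-ID2 and 786 in PB (0.43), and Med6 had 502 in PB-ID2 and 398 in PB (0.34). Med22 (0.21), Med17 (0.19), Med11 (0.14) and Med18 (0.03) were also on the higher side. Med20 was the 1 lower member, with 1172 in PB-ID2 and 1336 in PB (−0.19). None of the 7 reached 1.5-fold.

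The tail module receives signals from activators. Of its 9 members 8 were higher, all by little, with a median of 0.09 and Med16 at the top (1501 in PB-ID2 and 1306 in PB, 0.20). Med29 (0.19), Med23 (0.18) and Med28 (0.15) followed, and Med24, Med15, Med25 and Med27 lay between 0.02 and 0.09. The exception was Med30, with 370 in PB-ID2 and 468 in PB (−0.34). Med14, the scaffold that runs through the whole complex, stood at 800 in PB-ID2 and 796 in PB, counted as lower because its whole number was 796 in PB-ID2 and 800 in PB.

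The kinase module binds reversibly and keeps RNA polymerase II off the complex. All 4 of its members in the set were lower by whole steps, with a median of −0.14. Med12l, a paralog of Med12, stood at 139 in PB-ID2 and 230 in PB (−0.73), the lowest ratio of all members. Med12 had 2976 in PB-ID2 and 3266 in PB (−0.13), and Med13l had 6248 in PB-ID2 and 6903 in PB (−0.14). Med13 was nearly even, with 1440 steps in PB-ID2 and 1446 in PB (0.01). Its enzymatic partners, which carry other names, were on the other side: Cdk8 had 2135 in PB-ID2 and 2048 in PB (0.06), Cdk19 0.26, and cyclin C (Ccnc) 0.17. Over the whole of Mediator, 20 of 29 members were higher and 9 lower. The reference for this and every other count by complex is the background split, 47.2% higher and 51.5% lower. Each complex has few members, and whether any of them departed from that split was not tested.

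**Figure D3:**
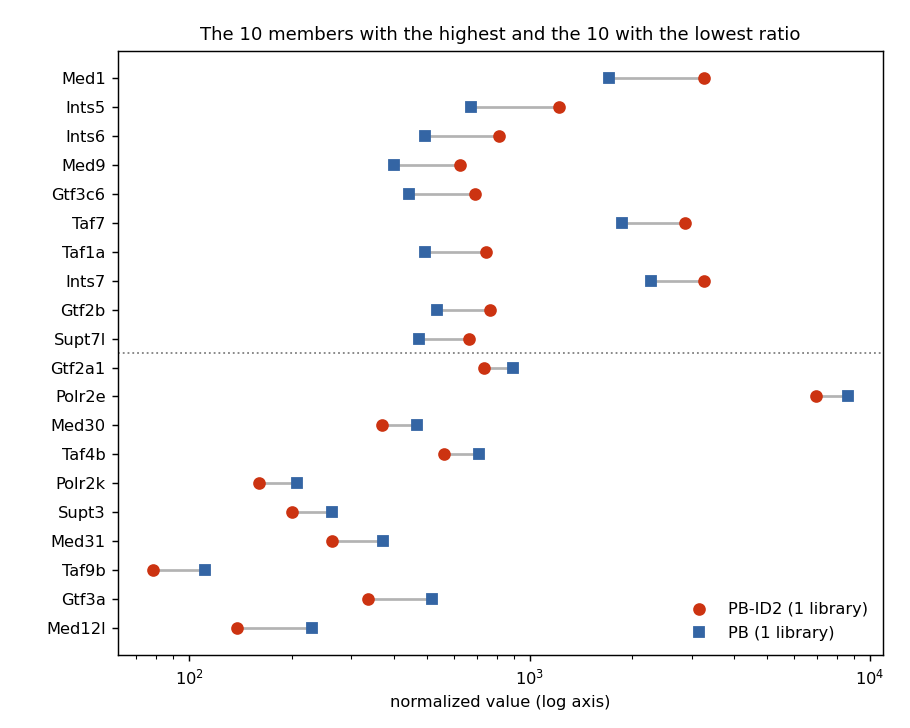
Normalized value (log axis) in the PB-ID2 library (red circles) and the PB library (blue squares) of the 10 members with the highest ratio, above the dotted line, and the 10 with the lowest, below it. Med1 has the widest gap on the higher side, with 3262 in PB-ID2 and 1718 in PB, and Med12l on the lower side, with 139 in PB-ID2 and 230 in PB.

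RNA polymerase II itself was among the least different groups, with a median of −0.01 (3 of 8 members higher, 4 lower and 1 equal). Its largest subunit Polr2a, which carries the repeated tail that is phosphorylated during the transcription cycle, stood at 20978 in PB-ID2 and 20775 in PB, the same whole number of steps in both. The second-largest, Polr2b, had 7010 in PB-ID2 and 7187 in PB (−0.04). The highest ratio belonged to Polr2m, an inhibitor that binds the enzyme (2547 in PB-ID2 and 2138 in PB, 0.25), and the lowest to Polr2g, which forms the stalk with Polr2d (1457 in PB-ID2 and 1668 in PB, −0.19). Polr2d stood at 0.19, Polr2i at 0.11, Polr2c at −0.14 and Polr2j at −0.15.

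Of the 5 subunits that all 3 polymerases share, 4 were lower, with a median of −0.11. Polr2k had 161 in PB-ID2 and 208 in PB (−0.37). Polr2e, the highest of them per length, had 6924 in PB-ID2 and 8618 in PB (−0.32). This was the lowest ratio of the 44 members with means from 1700 upward, whose 5th percentile was −0.19, although the 5th percentile of all genes there was −0.40. Polr2h (−0.11) and Polr2f (−0.01) were lower too, and Polr2l was higher (745 in PB-ID2 and 697 in PB, 0.10). The pair shared by polymerases I and III split, with Polr1c at 2818 in PB-ID2 and 2421 in PB (0.22) and Polr1d at 1704 in PB-ID2 and 1762 in PB (−0.05).

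All 3 members specific to RNA polymerase I were higher by small amounts. Polr1b, the second-largest subunit, had 1964 in PB-ID2 and 1698 in PB (0.21), Polr1e had 1365 in PB-ID2 and 1256 in PB (0.12), and the largest subunit Polr1a had 2462 in PB-ID2 and 2357 in PB (0.06). The genes of this enzyme that carry other names were on the same side: Twistnb stood at 892 in PB-ID2 and 572 in PB (0.64), Cd3eap at 0.34 and Znrd1 at 0.30. The promoter factor SL1, which brings the TATA-binding protein to ribosomal DNA, was split. Taf1a had 743 in PB-ID2 and 492 in PB (0.59), just past 1.5-fold, but its ratio of whole steps (0.58) was just short of it. Taf1c had 991 in PB-ID2 and 750 in PB (0.40). Taf1b (−0.10) and Taf1d (1334 in PB-ID2 and 1509 in PB, −0.18) were lower. Ubtf, an activator of ribosomal DNA, stood at 0.22 and Rrn3, which readies polymerase I for initiation, at −0.08.

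RNA polymerase III had 7 of 10 members higher and a median of 0.05. Polr3c was the highest (1521 in PB-ID2 and 1215 in PB, 0.32), while the largest subunit Polr3a was the lowest (1912 in PB-ID2 and 2061 in PB, −0.11). The paralogs Polr3g and Polr3gl occupy the same place in the enzyme, and Polr3g is known as the form that is high in pluripotent cells. Polr3g stood at 1398 in PB-ID2 and 1306 in PB (0.10), and Polr3gl at 1322 in PB-ID2 and 1417 in PB (−0.10). Per 1000 bases of transcript, Polr3g had 458 in PB-ID2 and 428 in PB, and Polr3gl 927 in PB-ID2 and 993 in PB.

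Its promoter factors showed a wide range within a median of −0.05. Gtf3c6, a small subunit of TFIIIC, stood at 691 in PB-ID2 and 443 in PB (0.64). Gtf3a, the zinc finger protein (TFIIIA) that binds the 5S RNA gene, stood at 336 in PB-ID2 and 517 in PB (−0.62). The other TFIIIC subunits lay between: Gtf3c5 at 0.17, Gtf3c2 at 0.04, the large DNA-binding subunit Gtf3c1 at −0.05 (6054 in PB-ID2 and 6275 in PB), Gtf3c3 at −0.07 and Gtf3c4 at −0.25. In the GENCODE M21 annotation 64.1% of the Gtf3a transcript overlaps exons of Mtif3 on the other strand, and these libraries do not mark strand. Mtif3 stood at 410 in PB-ID2 and 291 in PB (0.50), the opposite direction to Gtf3a. The 10 partner genes of this system (Brf1, Brf2, Bdp1, the Snapc genes, Crcp and Maf1) had 5 higher and 5 lower, from −0.50 for Snapc1 to 0.36 for Maf1, a repressor of the enzyme.

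TFIID recognizes the core promoter and holds the TATA-binding protein. Tbp stood at 1238 in PB-ID2 and 1263 in PB (−0.03), and 9 of the 14 TFIID members were higher, with a median of 0.04. Taf7 was the 1 member past 1.5-fold, with 2868 in PB-ID2 and 1875 in PB (0.61), and the authors' deposited table gives it an unadjusted p of 0.0402 and an adjusted p of 1. Taf11 (0.30), Taf5 (0.29) and Taf3 (0.24), the reader of a histone methyl mark, followed. The lowest were Taf9b, a paralog of Taf9, with 78.4 in PB-ID2 and 111 in PB (−0.50), and Taf4b, known from the germline, with 560 in PB-ID2 and 711 in PB (−0.34). Taf1, the largest subunit, had 4532 in PB-ID2 and 4072 in PB (0.15).

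In the histone acetyltransferase complex SAGA, which shares several TAFs with TFIID, the structural members split 2 to 3. Supt7l had 666 in PB-ID2 and 473 in PB (0.49) and Taf6l 1192 in PB-ID2 and 884 in PB (0.43). On the other side were Supt3 (201 in PB-ID2 and 263 in PB, −0.38), Supt20 (−0.20) and Taf5l (−0.06). Paralogs went opposite ways in both TFIID and SAGA pairs: Taf6 stood at −0.17 where Taf6l stood at 0.43, and Taf5 at 0.29 where Taf5l stood at −0.06. Of 13 SAGA partner genes 8 were higher and 5 lower, with Tada2b (0.47), Atxn7l3 (0.40) and Tada3 (0.39) at the top and Eny2 (−0.36) at the bottom. Taf15, an RNA-binding protein of the FET family that was grouped apart from TFIID and SAGA, had 4503 in PB-ID2 and 5010 in PB (−0.15).

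The smaller general factors of RNA polymerase II had 4 of 7 members higher and a median of 0.17. Gtf2b, which is TFIIB and positions the polymerase at the start site, had 766 in PB-ID2 and 533 in PB (0.52), just short of 1.5-fold. Both TFIIF subunits were higher (Gtf2f2 at 0.36 and Gtf2f1 at 0.23), and both TFIIA subunits were lower (Gtf2a1 with 734 in PB-ID2 and 892 in PB, −0.28, and Gtf2a2 at −0.25). TFIIE had Gtf2e1 at 0.17 and Gtf2e2 at −0.04. In the core of TFIIH, the factor that opens the promoter and also serves DNA repair, Gtf2h3 (0.22), Gtf2h4 (0.17) and Gtf2h1 (0.14) were higher and Gtf2h2 (−0.25) and Gtf2h5 (−0.26) lower. Its helicases and kinase subunits under other names were 4 higher and 1 lower, from Cdk7 at 0.29 to Mnat1 at −0.11. The TFII-I family, signal-responsive factors outside the initiation complex, had Gtf2ird2 at 0.41 (103.5 in PB-ID2 and 77.6 in PB), Gtf2i at 0.21 and Gtf2ird1 at −0.05.

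Integrator, counted by its Ints symbols only, had the highest median of the complexes (0.23), with 6 of 11 members higher and 5 lower. The 5 Integrator genes with other names had 2 higher and 3 lower, with a median of −0.13, from Asun (−0.23) to Vwa9 (0.24). Ints5 stood at 1221 in PB-ID2 and 673 in PB (0.86), the second-highest ratio of all members, with an unadjusted p of 0.0168 and an adjusted p of 0.907 in the authors' deposited table. Ints6, which holds the phosphatase on the complex, had 814 in PB-ID2 and 492 in PB (0.73), and Ints7 had 3266 in PB-ID2 and 2270 in PB (0.52). Ints12 followed at 0.36. Of the RNA-cleaving module, Ints4 (0.24) and Ints9 (0.23) were higher and the endonuclease itself, listed as Cpsf3l, was lower (1941 in PB-ID2 and 2183 in PB, −0.17). The other members, Ints1, Ints3, Ints8, Ints2 and Ints10, lay between −0.16 and 0.0031, with Ints10 the lowest (2257 in PB-ID2 and 2525 in PB). Without Ints5 the Integrator median was 0.12.

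Among the Supt factors that travel with RNA polymerase II, Supt6, a histone chaperone, had 7506 in PB-ID2 and 6070 in PB (0.31). Supt5, the conserved elongation factor of DSIF, had 7479 in PB-ID2 and 7407 in PB, the same whole number of steps, and its partner Supt4a had 900 in PB-ID2 and 973 in PB (−0.11). Supt16, a subunit of the chaperone FACT and the second-highest member per length, had 15599 in PB-ID2 and 16101 in PB (−0.05). Among pause and elongation factors with other names, the 4 NELF genes, which hold the paused polymerase, lay between −0.07 and 0.07. Of the 8 genes of P-TEFb, the kinase that releases it, and its regulators, 7 were higher, with a median of 0.10 and Cdk9 itself at 0.08. The 12 genes of the super elongation and PAF complexes had 9 higher and a median of 0.17, with Aff4 at 0.35, Paf1 at 0.27 and Ctr9 at 0.22, while the elongation factor Tcea3 stood at −0.32. Mepce, which caps the RNA that holds Cdk9 inactive, was at 0.45, and Mllt3, at a low level (124.6 in PB-ID2 and 175 in PB), at −0.49. Over all 83 partner genes 56 were higher and 25 lower, 2 were equal, and the median was 0.08, and Twistnb was the 1 past 1.5-fold. For comparison, 47.2% of the 12679 background genes stood on the higher side and 51.5% on the lower. In that background 8% were at least 1.5-fold higher in PB-ID2 and 6.59% at least 1.5-fold lower. The partner genes had higher values (median mean 1714, against 789 in the background), where ratios spread less.

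Levels of different genes can be compared only per length. Per 1000 bases of transcript, the median member stood at 509 in PB-ID2 and 463 in PB, against 284 in PB-ID2 and 281 in PB over 11508 coding genes above the floor. Polr2e was the highest (6031 in PB-ID2 and 7507 in PB), followed by Supt16 (3338 in PB-ID2 and 3445 in PB) and Polr2a (3112 in PB-ID2 and 3082 in PB). Without the shared subunits, the median RNA polymerase II member stood at 1814 in PB-ID2 and 1902 in PB. The 10 members of RNA polymerase III had a median of 484 in PB-ID2 and 460 in PB. The 3 members of RNA polymerase I had 457 in PB-ID2 and 421 in PB. The median was 1281 in PB-ID2 and 1387 in PB for the 5 subunits shared by all 3 polymerases. For the 2 subunits shared by polymerases I and III it was 1785 in PB-ID2 and 1658 in PB. The lowest were Med12l (12.6 in PB-ID2 and 20.9 in PB), Gtf2ird2 (29.7 in PB-ID2 and 22.3 in PB) and Taf9b (29.8 in PB-ID2 and 42.3 in PB). Between the kinase module paralogs, Med12 stood at 437 in PB-ID2 and 480 in PB and Med13l at 672 in PB-ID2 and 743 in PB, above Med13 at 137 in PB-ID2 and 136 in PB. Subunits of 1 complex thus spread widely: TFIID ranged from 29.8 to 889 in PB-ID2 and from 42.3 to 877 in PB. Transcript models limit these values, since the model used for Tbp is 12794 bases long, most of it 1 exon.

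**Figure D4:**
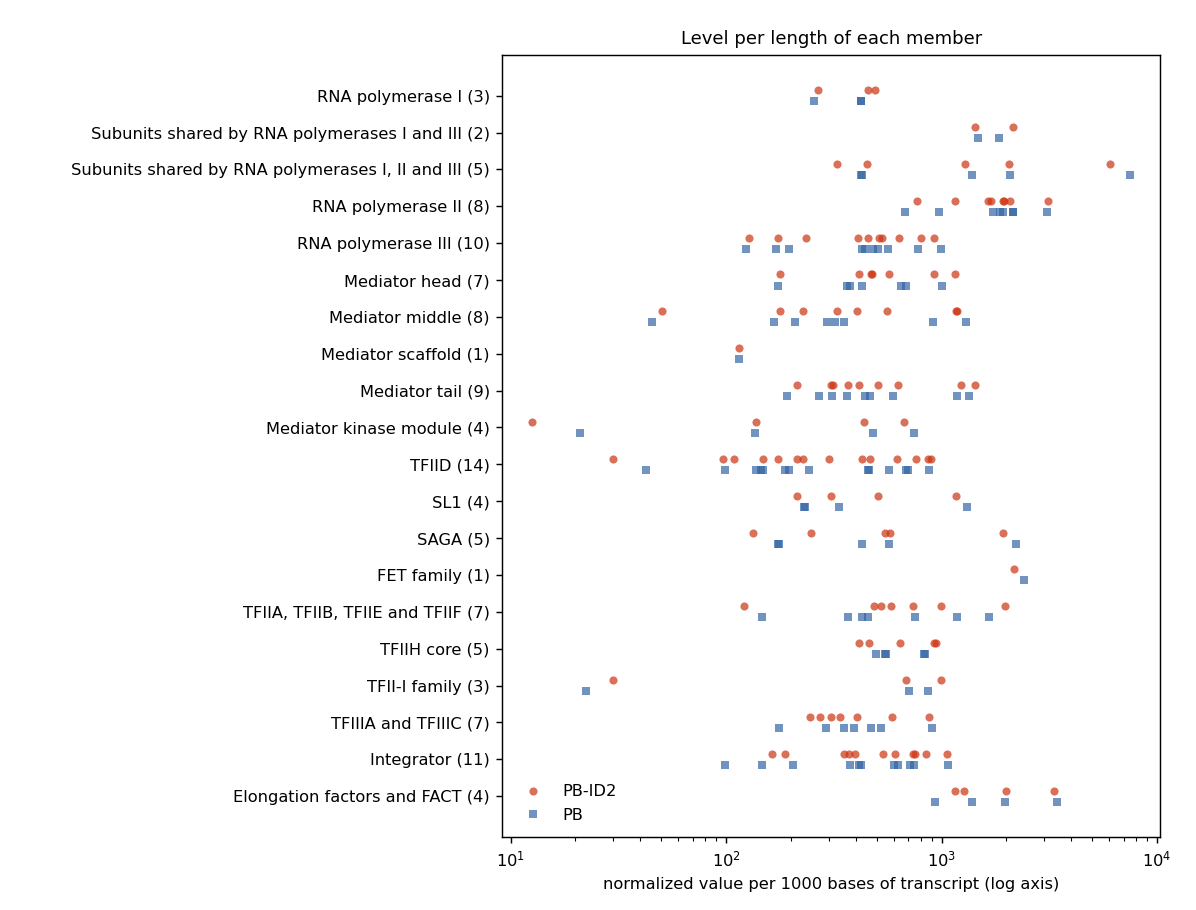
Normalized value per 1000 bases of transcript (log axis) of each member in PB-ID2 (red circles) and PB (blue squares), by complex, with the number of members in brackets. RNA polymerase II and the elongation factors have higher medians than RNA polymerases I and III in both libraries, with the shared subunits set apart. The red and blue points of a complex cover nearly the same range.

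Several members with the highest ratios have most of their transcript in 1 exon. In Ints5, Taf7, Med9 and Gtf3c6 at least 80% of the transcript lies in 1 exon (95.6%, 92.1%, 85.8% and 84.3%), and in Med1 72.2%, while Ints6 has 36.8% and Taf1a 13.5% in the largest exon. Of the 15 members of this kind, 4 were at least 1.5-fold higher and 0 lower, beside 298 (19%) and 95 (6.05%) of all 1570 such genes. Of the other 103 members, 3 were at least 1.5-fold higher and 2 lower, beside 5.79% and 5.84% of all 9938 other coding genes. The 11 remaining members of this kind lay between −0.26 (Gtf2h5) and 0.15 (Med7), Tbp and Polr2l among them. The part of exon structure in these ratios was not tested. Without the 15 genes 3 members were past 1.5-fold on the higher side: Med1, Ints6 and Taf1a.

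**Figure D5:**
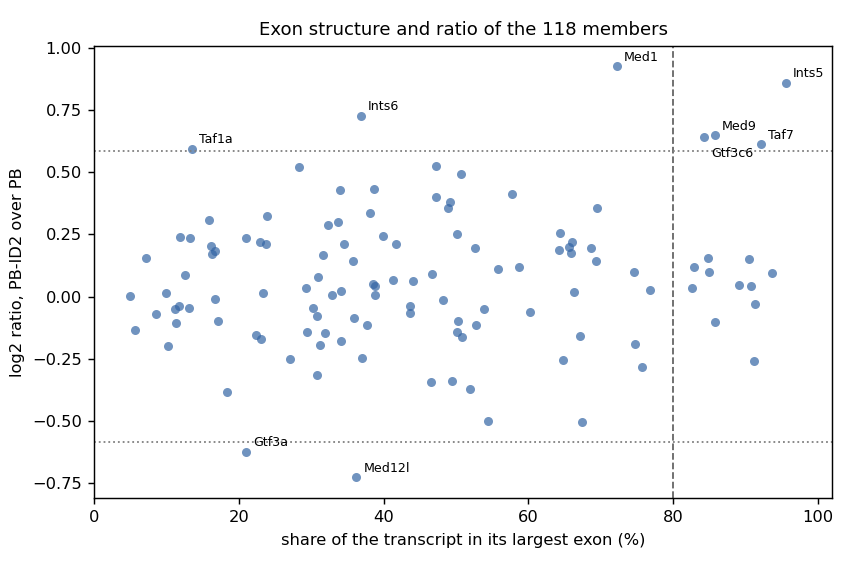
Share of the transcript in its largest exon (%) against the log2 ratio of PB-ID2 over PB, 1 point for each of the 118 members. The dashed line marks 80% and dotted lines 1.5-fold. To the right of the dashed line 4 of 15 members lie above the upper dotted line and none below the lower one.

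Overlapping genes limit some members. At least 10% of the transcript overlaps exons of another gene in 23 members, on the opposite strand in 19 of them, including Med12l (17.7%, with Igsf10), Med31 (39.2%), Taf10 (49.2%), Taf6 (39.1%) and Tbp (20.2%). Both members that were at least 1.5-fold lower, Med12l and Gtf3a, belong to these 23. So does Ints5 (14.3%, on the same strand), which was at least 1.5-fold higher. The largest overlap on the same strand was that of Gtf3c2 (56.2%), whose ratio was 0.04. The share of all genes with such an overlap was not computed. Reads that members may share with near-identical copies elsewhere in the genome were not examined. Just short of 1.5-fold were Ints7 and Gtf2b (both 0.52) on the higher side and Taf9b and Med31 (both −0.50) on the lower side. Just past it were Taf1a (0.59), Taf7 (0.61) and Gtf3a (−0.62), with Gtf3c6 (0.64) and Med9 (0.65) not far beyond.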

How the data were processed

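RNA of 1 PB-ID2 and 1 PB culture was sequenced from TruSeq v2 libraries. The submitters' processing notes name STAR, DESeq and mm9, and how reads were assigned to genes, with which annotation, is not given in the sources used here. One table was deposited by the authors, with a normalized signal per library, their mean, and the authors' fold (ratio), log2 fold, p-value and adjusted p-value. Every signal value was a whole number of steps of 1.00 (PB-ID2) or 0.995 (PB), within 4.1e-05 of a step, and 0 ranks of the sorted whole numbers differed between libraries. The values were therefore set to a common distribution by a step that no header or label names, and the depth is unknown.

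Log2 ratios were computed after adding a pseudocount of 1, for genes with a mean of at least 50, in Python 3.11.15 with pandas 2.3.3. No test was run, since each group has 1 library, and the authors' p-values are quoted as theirs. Complexes, partner genes, paralog pairs and the rule for named genes (the 10 highest and 10 lowest ratios, the extremes of each complex, the largest polymerase subunits, Tbp, paralogs, members with an unadjusted p under 0.05 and partners past 1.5-fold) were chosen with earlier results of these data known; further members are named where a complex is described in full, and further partner genes were named after their values were seen. Transcript lengths and exons are of 1 GENCODE M21 transcript a gene (build GRCm38, matched by symbol for 118 members), chosen by APPRIS rank, support level and length. Alternatives covered the scaling, whole steps, the pseudocount (0.1 or 10), the floor (none or 250), the fold (2, or 0.32 on the log2 scale) and the authors' log2 column.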

Additional observations from a re-analysis of the deposited data

How the results depend on the processing

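Of 504 recomputed values, 487 stayed within 0.1 (log2) or 1.5 times (counts), and 17 moved. No ratio past 1.5-fold changed sign. The scaling, whole steps, both pseudocounts, no floor and the authors' log2 column moved no value. They could shift ratios at these levels only slightly, so this is no measure of stability. A floor of 250 or leaving out members cannot change the ratio of any single gene. Leaving out members cannot change the median of the partner genes either. That part of the 487 was fixed in advance. On whole steps 6 members rather than 7 were at least 1.5-fold higher, since Taf1a stood at 0.58, and the near-even Med13 and Med14 stood just below 0. With a fold of 2, 0 members were past it on either side, and with 0.32 on the log2 scale there were 19 higher and 8 lower. With a floor of 250, 1 member was at least 1.5-fold lower, the median of SAGA turned from negative to 0.185, and that of the TFII-I family was 0.083. The next alternatives, which leave out members, were chosen after seeing the data. Without members that overlap another gene, 0 were at least 1.5-fold lower, and medians were −0.22 for the subunits shared by all 3 polymerases, 0.51 for the Mediator middle, 0.12 for Integrator, −0.10 for SL1, 0.10 for the elongation factors and 0.01 for RNA polymerase II, the last 3 with the opposite sign. Without members with 80% of the transcript in 1 exon, 3 were at least 1.5-fold higher, 1 had an unadjusted p under 0.05 in the authors' deposited table, and medians were −0.22 for the shared subunits and 0.12 for Integrator. These shifts come only from which members were left out, since the ratios of the remaining members stay the same. No paired analysis was possible because each group has 1 library. With depth unknown, counting error cannot be given for any value, and it weighs most on members with the lowest values, such as Taf9b, Gtf2ird2 and Med7.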
